A study of Rattus norvegicus with 12 samples.

Results

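Aminoacyl-tRNA synthetases join each amino acid to its tRNA, the step that readies amino acids for the ribosome. Their transcripts were followed in the epididymal fat pad of fed and fasted rats. The genes were taken by symbol: a capital letter followed by ars, ars1 or ars2, with Farsa, Farsb, Eprs1, Aimp1, Aimp2 and Eef1e1 added. This gave 33 genes on 34 probe sets, of 14506 genes tested. They comprised 19 cytosolic synthetases, 11 mitochondrial synthetases (symbols ending in 2) and 3 proteins that hold synthetases together in a complex. Hars1 alone had more than 1 probe set. The rule that picks the genes uses symbols and no measured value, although it was proposed with earlier results of these data known. Another 7 genes that fit these symbols in RefSeq were not analysed here.

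Tissue came from 12 male Sprague-Dawley rats, 1 Affymetrix Rat Gene 1.0 ST array per rat, allotted at random to 3 groups of 4. One group was fed, and the others were fasted as far as phase 2 (P2) or phase 3 (P3) of the fast. The labels give no genetic change or drug for any group, and age, hours of fasting and body weights are not given in the sources used here. In phase 2 of a prolonged fast fat is the main fuel and body protein is spared, whereas in phase 3 the breakdown of body protein accelerates. The arrays measured whole fat pad, so fewer cells of a type and less RNA per cell cannot be told apart.

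Animal cells use synthetases in 2 places, and all are encoded in the nucleus. Some work in the cytosol and some are imported into mitochondria to serve the few proteins made there. The split used here follows the symbols alone, so a gene whose product serves both places counts as cytosolic. Part of the cytosolic set is bound in the multisynthetase complex, which is held together by the scaffold proteins encoded by Aimp1, Aimp2 and Eef1e1. When uncharged tRNA builds up, the kinase GCN2 (Eif2ak4) raises translation of the transcription factor ATF4, which induces amino acid transporters, biosynthetic enzymes and many cytosolic synthetases through composite C/EBP and ATF response elements.

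That element is visible in the promoters, and the stretches that hold it are shown here because the cytosolic set is known for this control. RefSeq promoter windows of assembly GRCr8, 300 bases each from 250 before to 50 after the start, were matched for 31 of the 33 genes (not for Gars1 and Rars1). TGATGNAA, sought on both strands, lay in 7 of 17 cytosolic windows (41.2%), 0 of 11 mitochondrial windows and 0 of 3 windows of the complex proteins, against 3.82% of all 27457 windows. Each stretch is written 5′ to 3′ along the gene's own strand with the element in capitals, counting the start as base 1.
Aars1, chr19:55908357-55908481, plus strand, element at -112: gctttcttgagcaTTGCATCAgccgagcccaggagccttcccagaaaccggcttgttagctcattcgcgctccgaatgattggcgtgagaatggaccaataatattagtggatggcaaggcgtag
Iars1, chr17:15193653-15193777, minus strand, element at -24: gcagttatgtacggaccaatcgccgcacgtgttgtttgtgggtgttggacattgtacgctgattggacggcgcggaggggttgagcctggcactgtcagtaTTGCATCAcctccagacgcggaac
Mars1, chr7:65023754-65023878, minus strand, element at -17: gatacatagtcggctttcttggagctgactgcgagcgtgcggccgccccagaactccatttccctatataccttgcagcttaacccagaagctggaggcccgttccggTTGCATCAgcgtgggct
Nars1, chr18:60275783-60275907, minus strand, element at -14: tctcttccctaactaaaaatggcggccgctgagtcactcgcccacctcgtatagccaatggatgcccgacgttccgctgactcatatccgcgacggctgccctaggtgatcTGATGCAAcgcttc
Tars1, chr2:62114803-62114927, minus strand, element at -27: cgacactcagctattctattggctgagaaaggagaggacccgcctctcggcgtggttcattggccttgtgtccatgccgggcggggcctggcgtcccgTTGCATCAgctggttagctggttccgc
Cars1, chr1:208225334-208225363, minus strand, element at 18: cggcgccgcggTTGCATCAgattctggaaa
Yars1, chr5:146820190-146820212, plus strand, element at 39: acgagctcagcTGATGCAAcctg

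In all 7 stretches the variable base was C, so that the element reads TTGCATCA or, on the other strand, TGATGCAA. The Aars1 window held the element again at base 10, there as TTTCATCA, with A as the variable base. The E-box CACGTG lay in 5 of 17 cytosolic windows (29.4%) and 0 of 11 mitochondrial windows, against 6.65% of all windows. GCGCANGC, the core of the NRF1 element, lay in 5 of 17 cytosolic windows (29.4%) and in 3 of 11 mitochondrial windows (27.3%), against 9.67% of all windows. These matches are letters in a window and no measurement of binding. Hars1 and Hars2, the cytosolic and mitochondrial histidyl-tRNA synthetases, are neighbours read in opposite directions, and all 143 bases between their starts follow on the plus strand, where no TGATGNAA was found.
Hars1 and Hars2, chr18:28672713-28672855, plus strand: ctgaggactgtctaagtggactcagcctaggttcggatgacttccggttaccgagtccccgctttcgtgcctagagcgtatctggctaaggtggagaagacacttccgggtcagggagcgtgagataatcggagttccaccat

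All values are deposited log2 levels per probe set, so a difference of 1 is a doubling. A gene was called at a limma adjusted p below 0.05 over all 14506 genes (Benjamini-Hochberg), and errors on changes are standard errors (SE). The 3 comparisons share rats with one another. The array medians over the tested genes were lower in P3 than in fed rats (-0.155), so that centring every array on its median moves all changes of P3 against fed up by that amount. The shift was smaller for P3 against P2 (-0.09) and P2 against fed (-0.065). Among all genes called, the share that was higher went from 38.4% to 53.0% for P2 against fed when arrays were centred (49.7% with quantile normalisation). Centring moved that share from 46.5% to 69.6% for P3 against fed and from 45.8% to 64.9% for P3 against P2. The extraction protocol speaks of liver while every other label names epididymal fat. The adipocyte marker Adipoq was at 11.08 to 13.18 in the 12 rats, and the 12 adipocyte markers had a mean level of 10.15 to 12.02. The 14 hepatocyte markers had a mean of 5.28 to 5.62, and no liver array was there to set it against. Within that hepatocyte list, transferrin (Tf) was at 9.89 to 11.19 and albumin (Alb) at 5.20 to 10.78 over the 12 rats, highest in P2 rat 3. Of the 14, 2 fell in P2 (15.5% of all genes did), and 1 rose and 3 fell from fed to P3 (21.1% and 24.3%).

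Cytosolic synthetase transcripts were lower in P2 than in fed rats. Of the 19 genes, 12 fell and 0 rose, where 15.5% of all genes tested were lower and 9.66% higher. The values of the 4 P2 rats lay clear of those of the 4 fed rats for 15 of the 19, against 31.0% of all genes. The median change over the 19 was -0.33, with all genes at 0.01. Rat by rat, the class median relative to the fed mean ran from -0.46 to -0.25 in P2 and from -0.07 to 0.05 in fed rats. The median stayed below 0 under each rescaling, at -0.27 with centred arrays or quantile normalisation and at -0.31 with cyclic loess.

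**Figure D1:**
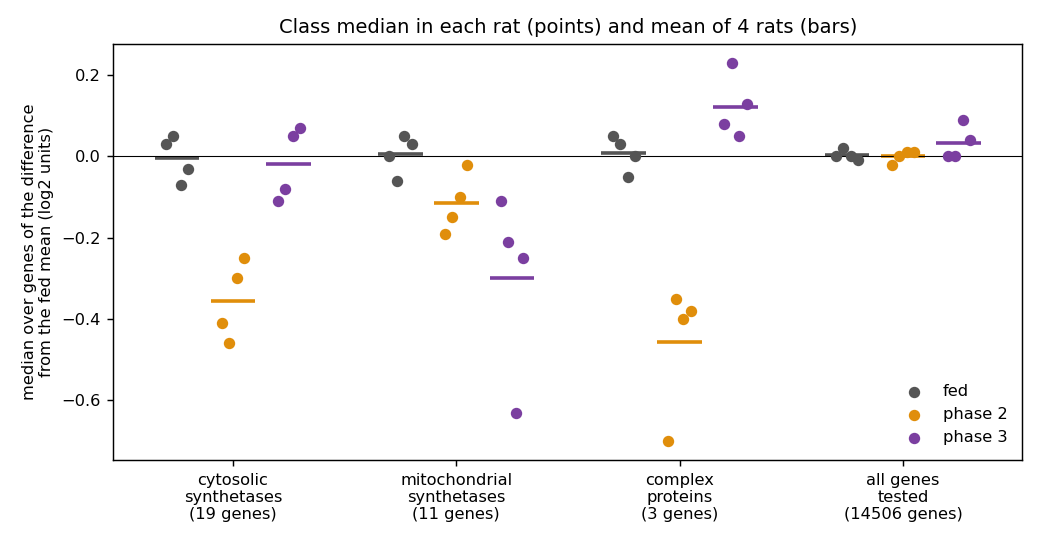
Median over the genes of a class of the difference from the fed mean (y axis, log2 units), by class (x axis), with 1 point per rat and a bar at the mean of 4 rats. The P2 rats sit at -0.46 to -0.25 for the cytosolic synthetases and the P3 rats at -0.11 to 0.07, while for the mitochondrial synthetases the P3 rats (-0.63 to -0.11) lie below the fed rats and overlap the P2 rats (-0.19 to -0.02), with P3 rat 3 lowest.

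The deepest fall was that of Wars1, the cytosolic tryptophanyl-tRNA synthetase, which is also known as an interferon-induced gene. Its level was 9.56, 9.65, 9.47 and 9.53 in fed rats 1 to 4, 8.70, 8.78, 8.83 and 8.76 in P2 rats, and 8.52, 8.69, 8.92 and 8.72 in P3 rats. Every fasted rat lay below every fed rat, and the P2 and P3 rats overlapped. Wars1 was 1.72-fold lower in P2 (change -0.78, SE 0.0866, limma adjusted p = 2.04e-05) and 1.79-fold lower in P3 (change -0.84, SE 0.0866, limma adjusted p = 2.17e-06). Between P3 and P2 the change was -0.06, with a 95% interval of -0.24 to 0.13. Of 24 interferon response genes, 0 rose and 3 fell in P2, against 9.66% and 15.5% of all genes, while 20 of the 24 changes were below 0 with a median of -0.49. From P2 to P3, 4 rose and 4 fell (12.8% and 15.1% of all genes), and from fed to P3, 1 rose and 5 fell (21.1% and 24.3%). The immunoproteasome subunits Psmb8 and Psmb10 were lower in both phases (-0.66 and -0.47 in P2, -1.28 and -1.02 in P3). The list as a whole spread both ways in P3, with changes from fed of -1.79 to 2.25. Its mean level per rat was 7.72 to 8.18 in fed, 7.29 to 7.79 in P2 and 6.90 to 8.61 in P3 rats. Their relation to the fall of Wars1 was not tested.

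Yars1, the tyrosyl-tRNA synthetase, followed the same course. It stood at 9.41, 9.49, 9.29 and 9.36 in the fed rats, at 8.73, 8.56, 8.78 and 8.82 in P2 and at 8.52, 8.59, 8.98 and 8.92 in P3. Both fasted groups lay below the fed rats without overlap. The change was -0.67 (SE 0.108, limma adjusted p = 0.00045) in P2 and -0.63 (SE 0.108, limma adjusted p = 0.000228) in P3.

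Aars1, Vars1 and Farsb, for alanine, valine and the beta subunit of the phenylalanine enzyme, were also lower than fed in both phases. Aars1 went from 9.69, 9.68, 9.50 and 9.53 in fed rats to 8.98, 8.86, 9.25 and 9.04 in P2 and 8.99, 9.08, 9.39 and 9.39 in P3. Vars1 went from 7.46, 7.60, 7.43 and 7.52 to 6.96, 6.89, 7.06 and 7.05 in P2 and 7.22, 6.84, 7.32 and 7.21 in P3. Farsb went from 9.39, 9.23, 9.28 and 9.49 to 8.71, 8.89, 8.89 and 8.93 in P2 and 9.14, 9.02, 8.84 and 8.95 in P3. For all 3 genes the fed rats stood above every fasted rat. The falls in P2 were -0.56 (SE 0.111), -0.51 (SE 0.0986) and -0.50 (SE 0.0887), with limma adjusted p-values of 0.00184, 0.00171 and 0.000932. In P3 they were -0.39, -0.35 and -0.36 (limma adjusted p = 0.011, 0.00893 and 0.00402). With centred arrays these 3 P3 calls ended (adjusted p = 0.0781, 0.101 and 0.0628), and that of Vars1 ended with quantile normalisation too (0.15).

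Gars1, the glycyl-tRNA synthetase, was called only in P2. Its level was 10.58, 10.15, 10.48 and 10.47 in fed rats, 9.76, 9.78, 10.04 and 10.11 in P2 and 10.02, 10.08, 10.41 and 10.23 in P3. The fed and P2 rats were clear of each other and the P3 rats overlapped both. The fall in P2 was -0.50 (SE 0.119, limma adjusted p = 0.00665), and P3 differed from fed by -0.24 with a 95% interval of -0.49 to 0.02. Without fed rat 2 or without P3 rat 3, P3 too was called lower than fed (adjusted p = 0.0365 and 0.0472). Under the rescalings that difference lay between -0.23 and -0.08, and its limma adjusted p reached 0.554 among the alternatives.

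In P3 the cytosolic set stood higher than in P2. Of the 19 genes, 10 rose and 0 fell between P2 and P3, against 12.8% of all genes higher and 15.1% lower. The groups did not overlap for 10 of the 19, against 26.3% of all genes. The median change was 0.26 (all genes 0.03), and it was 0.25 to 0.35 when the arrays were rescaled. Those that rose were Tars1, Rars1, Nars1, Cars1, Hars1, Sars1, Iars1, Farsa, Mars1 and Eprs1, by 0.25 to 0.69.

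**Figure D2:**
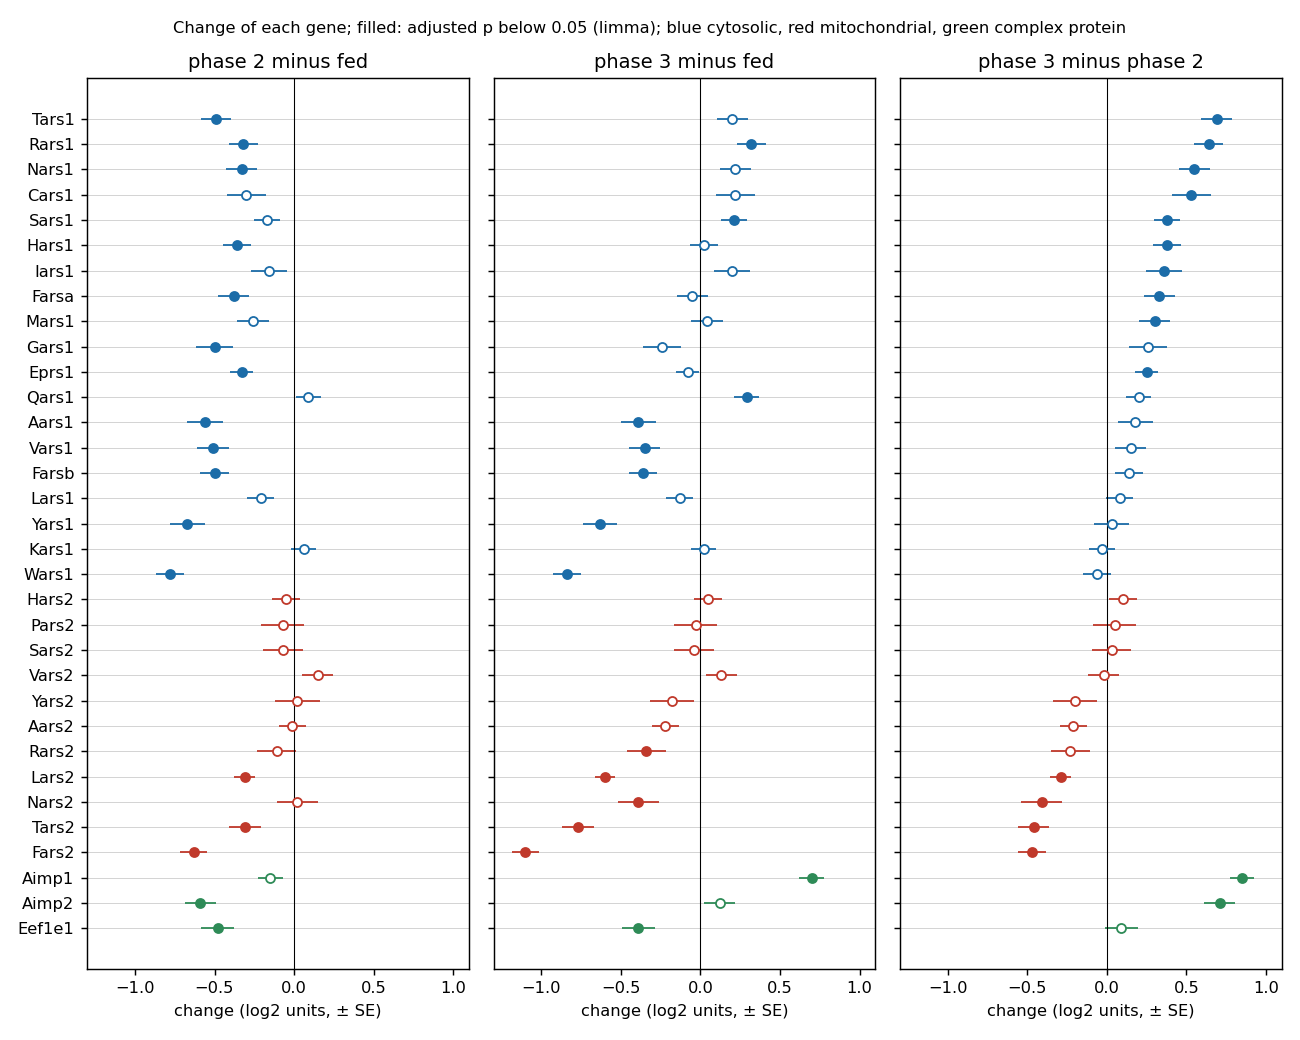
Change of each of the 33 genes (rows) in log2 units with its SE (x axis) in the 3 comparisons (panels), filled where the limma adjusted p was below 0.05. Of the 19 blue cytosolic points, 17 lie left of 0 for P2 against fed and 17 right of 0 for P3 against P2, up to Tars1 at 0.69, while no red mitochondrial point is filled to the right of 0.

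Tars1, the threonyl-tRNA synthetase, rose most of the 19. It stood at 8.77, 8.69, 8.44 and 8.49 in fed rats, at 8.01, 8.06, 8.14 and 8.21 in P2 and at 8.59, 8.86, 8.88 and 8.87 in P3. The P2 rats lay below all others, and fed and P3 rats overlapped. It fell by 0.49 in P2 (SE 0.0966, limma adjusted p = 0.00193) and rose 1.62-fold from P2 to P3 (change 0.69, SE 0.0966, limma adjusted p = 0.000108). P3 was 0.20 above fed, with a 95% interval from -0.00 to 0.41. That difference was called without P3 rat 1 (adjusted p = 0.0305) and under each of the 3 rescalings (0.00656 to 0.0427).

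Rars1, the arginyl-tRNA synthetase of the multisynthetase complex, overshot the fed level. Its values were 9.74, 9.73, 9.67 and 9.72 in fed rats, 9.14, 9.42, 9.43 and 9.61 in P2, and 9.95, 10.12, 10.08 and 10.02 in P3. The 3 groups did not overlap. The change was -0.32 in P2 (SE 0.0919, limma adjusted p = 0.0204), 0.64 from P2 to P3 (limma adjusted p = 0.000133) and 0.32 from fed to P3 (limma adjusted p = 0.01). The fall in P2 lost its call with centred arrays (0.0671), with quantile normalisation (0.0631), without fed rat 1 (0.0519) and without P2 rat 1 (0.0591).

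Nars1, the asparaginyl-tRNA synthetase, stood at 10.04, 9.85, 9.87 and 9.83 in fed, 9.43, 9.55, 9.63 and 9.65 in P2 and 9.90, 10.04, 10.22 and 10.31 in P3 rats. P2 rats were lowest throughout, and fed and P3 rats overlapped. It fell by 0.33 in P2 (SE 0.096, limma adjusted p = 0.0204) and rose by 0.55 to P3 (SE 0.096, limma adjusted p = 0.000637). The P2 call ended with centred arrays (0.0522), with quantile normalisation (0.0667), without fed rat 1 (0.0692) and without P2 rat 1 (0.0653).

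Cars1, the cysteinyl-tRNA synthetase, was at 8.12, 8.29, 7.94 and 7.98 in fed rats, at 7.82, 7.62, 7.78 and 7.89 in P2 and at 8.08, 8.07, 8.51 and 8.56 in P3. P2 rats were lowest, without overlap, and P3 rats 3 and 4 were highest. Only the difference between the phases was called, at 0.53 (SE 0.123, limma adjusted p = 0.00508). P2 against fed gave -0.30 (SE 0.123, limma adjusted p = 0.0894, 95% interval -0.57 to -0.04).

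**Figure D3:**
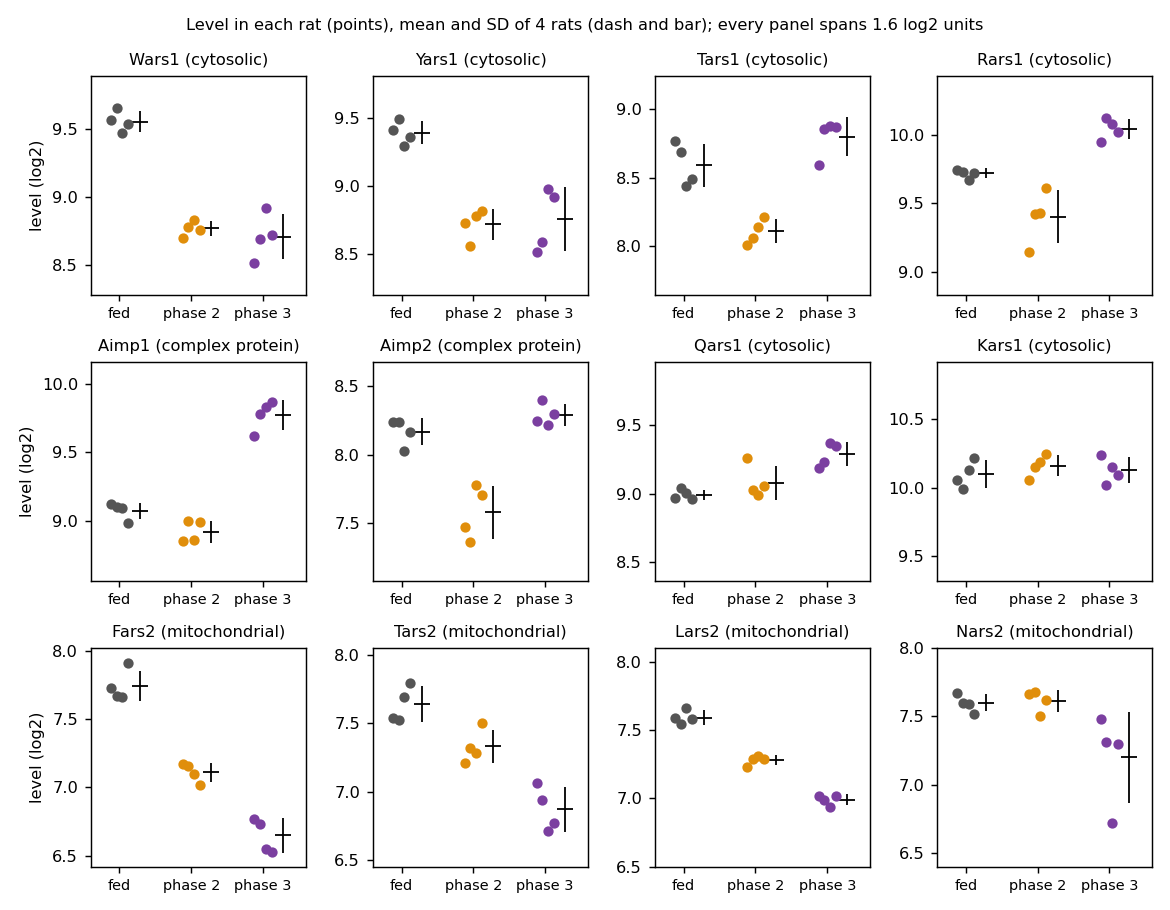
Log2 level (y axis) in each of the 4 rats of each group (x axis), with the mean and SD beside the points, for 12 genes, every panel spanning the same height. Wars1 and Yars1 drop and stay low, Tars1, Rars1 and Aimp2 dip in P2 only, Aimp1 rises in P3 only, and Fars2, Tars2 and Lars2 step down in P2 and again in P3, to 6.53 for Fars2 in P3 rat 4.

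Of the other genes that rose from P2 to P3, Eprs1, Farsa and Hars1 had fallen in P2 (-0.33, -0.38 and -0.36) and were not distinguishable from fed in P3 (-0.08, -0.05 and 0.02, limma adjusted p = 0.385, 0.7 and 0.847). Eprs1 encodes the joined enzyme for glutamate and proline and Farsa the alpha subunit of the phenylalanine enzyme. The rises of Eprs1 (0.25, limma adjusted p = 0.0181) and Farsa (0.33, limma adjusted p = 0.0208) lost their calls when P2 and P3 were fitted alone (0.0527 and 0.0524). That of Eprs1 ended without P2 rat 1 (0.0551), and that of Farsa without P2 rat 2 (0.0644), P3 rat 2 (0.0591) or P3 rat 4 (0.0726). Iars1 and Mars1, for isoleucine and methionine, rose by 0.36 and 0.30 (limma adjusted p = 0.027 and 0.0394), calls that ended in 5 and 10 of the 20 alternatives, with adjusted p-values up to 0.0854 and 0.127. The rats whose removal ended them were P2 rats 2 and 3 and P3 rats 3 and 4 for Iars1, and fed rats 1 to 4, P2 rats 1 and 2 and P3 rats 3 and 4 for Mars1.

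The 2 probe sets of Hars1 moved apart. The brighter one, used here, fell from 9.70 to 9.87 in fed rats to 9.30 to 9.61 in P2 and was at 9.62 to 9.89 in P3. The dimmer one lay at 5.34 to 5.57 in fed rats, at 5.67 to 6.26 in P2 and at 5.73 to 6.49 in P3. Its fed values were at the low end of the scale, below the 95th percentile of 53 olfactory receptor genes (5.66). Tested over all 29215 probe sets, the brighter one fell in P2 (-0.36, limma adjusted p = 0.012) and the dimmer one rose in P2 (0.55, limma adjusted p = 0.0229) and in P3 (0.63, limma adjusted p = 0.00525). Hars1 is therefore uncertain: the mean of both gave 0.10 in P2 (adjusted p = 0.429) and 0.33 in P3 against fed (adjusted p = 0.00305).

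Against fed rats the P3 cytosolic set was split: 3 genes were higher and 5 lower, where 21.1% of all genes were higher and 24.3% lower. The groups did not overlap for 8 of 19, against 41.9% of all genes, so these shares were near the background. The median was 0.02, and 0.18 with centred arrays, under which 7 were higher and 2 lower. Leaving out P3 rat 1 gave 5 higher in place of 3. Of the 3 higher genes, Qars1, the glutaminyl-tRNA synthetase, stood at 8.97, 9.04, 9.01 and 8.96 in fed rats, 9.26, 9.03, 8.99 and 9.06 in P2 and 9.19, 9.23, 9.37 and 9.35 in P3. P3 lay above fed without overlap and P2 overlapped both. The change was 0.29 (SE 0.079, limma adjusted p = 0.00759). Sars1, the seryl-tRNA synthetase, rose by 0.21 over fed (limma adjusted p = 0.0442), a call that ended in 9 of 20 alternatives with adjusted p-values up to 0.104, and by 0.38 over P2 (SE 0.0803, limma adjusted p = 0.0027), which was called in all 20. The first ended without fed rat 1, 3 or 4, P2 rat 1 or 4, or P3 rat 2, 3 or 4.

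Kars1 and Lars1, for lysine and leucine, were called in no comparison. Kars1 was at 10.06, 9.99, 10.13 and 10.22 in fed rats, 10.06, 10.15, 10.19 and 10.25 in P2 and 10.24, 10.02, 10.15 and 10.09 in P3. The 3 groups overlapped. Its change in P2 was 0.06 with a 95% interval of -0.11 to 0.23, and from P2 to P3 it was -0.03 with an interval of -0.21 to 0.14. With Qars1 (0.09 in P2, 95% interval -0.08 to 0.26) it was the only cytosolic synthetase with a value above 0 in P2. Lars1 was at -0.21 in P2 (limma adjusted p = 0.0975) and its fed and P2 rats did not overlap.

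Kars1, Qars1, Lars1 and Rars1 belong to the multisynthetase complex with Eprs1, Iars1 and Mars1. Of these 7, 2 fell in P2 (against 15.5% of all genes), 4 rose from P2 to P3 (against 12.8%) and 2 rose from fed to P3 (against 21.1%). Of the 12 cytosolic genes outside the complex, 10 fell in P2, 6 rose from P2 to P3, and 1 rose and 5 fell from fed to P3 (against 21.1% and 24.3%). The median change in P2 was -0.21 within the complex and -0.49 outside it. By structural class, 4 of the 9 class I and 7 of the 9 class II enzymes fell in P2, leaving aside the joined enzyme Eprs1. From P2 to P3, 4 class I and 5 class II enzymes rose. These counts are descriptions, and the difference between the subgroups was not tested.

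The complex proteins themselves went different ways. Aimp1, whose product also gives rise to a secreted cytokine, was at 9.12, 9.10, 9.09 and 8.98 in fed rats, 8.85, 9.0, 8.86 and 8.99 in P2 and 9.62, 9.78, 9.83 and 9.87 in P3. The P3 rats stood clear above all 8 others. Aimp1 was 1.63-fold higher in P3 than in fed rats (change 0.70, SE 0.0777, limma adjusted p = 4.42e-06) and 1.80-fold higher than in P2 (change 0.85, SE 0.0777, limma adjusted p = 2.92e-06). Its P2 value differed from fed by -0.15 with a 95% interval of -0.32 to 0.02.

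Aimp2, the central scaffold of the complex, was at 8.24, 8.24, 8.03 and 8.17 in fed rats, at 7.47, 7.36, 7.78 and 7.71 in P2 and at 8.25, 8.40, 8.22 and 8.30 in P3. P2 rats were lowest without overlap, and fed and P3 rats overlapped. It fell by 0.59 in P2 (SE 0.0976, limma adjusted p = 0.000522) and rose by 0.71 to P3 (SE 0.0976, limma adjusted p = 9.1e-05). Eef1e1, a small complex protein also known as AIMP3, was at 9.41, 9.27, 9.31 and 9.45 in fed rats, at 8.58, 9.01, 8.95 and 8.98 in P2 and at 8.88, 9.13, 9.03 and 8.84 in P3. Both fasted groups lay below the fed rats. It was 0.48 lower than fed in P2 (limma adjusted p = 0.00373) and 0.39 lower in P3 (limma adjusted p = 0.00689). With centred arrays the P3 call ended (0.0742).

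Most of the 11 mitochondrial synthetases were not called in any given comparison, and every called one was lower. In P2, 3 of the 11 fell and 0 rose, where 15.5% of all genes were lower, and 3 were without overlap, where 31.0% of all genes were. From P2 to P3, 4 fell and 0 rose, against 15.1% of all genes lower, and from fed to P3, 5 fell and 0 rose, against 24.3%. The groups did not overlap for 4 and 5 of the 11, against 26.3% and 41.9% of all genes. The shares without overlap in P2 and from fed to P3 were therefore near the background. The median changes were -0.07 in P2, -0.21 from P2 to P3 and -0.22 from fed to P3. With centred arrays or quantile normalisation the last was -0.06, with 3 genes lower and 1 (Vars2) higher, and without fed rat 1 there were 3 lower in place of 5.

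Fars2, the mitochondrial phenylalanyl-tRNA synthetase, fell furthest of the 33 genes in P3. It was at 7.73, 7.67, 7.66 and 7.91 in fed rats, at 7.17, 7.16, 7.10 and 7.02 in P2 and at 6.77, 6.73, 6.55 and 6.53 in P3. The 3 groups formed 3 separate steps. The change was -0.63 in P2 (SE 0.0855, limma adjusted p = 0.000111), -0.47 from P2 to P3 (SE 0.0855, limma adjusted p = 0.000953) and -1.10 from fed to P3 (SE 0.0855, limma adjusted p = 1.37e-07), a 2.14-fold difference.

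Tars2, for threonine, was at 7.54, 7.52, 7.69 and 7.79 in fed rats, 7.21, 7.32, 7.28 and 7.50 in P2 and 7.06, 6.94, 6.71 and 6.77 in P3. The groups again stood in 3 steps, with P2 rat 4 just under the lowest fed rat. It changed by -0.46 from P2 to P3 (SE 0.0998, limma adjusted p = 0.00326) and by -0.77 from fed to P3 (SE 0.0998, limma adjusted p = 1.97e-05). The step in P2 was smaller (-0.31, limma adjusted p = 0.0353), and that call ended in 9 of 20 alternatives, with adjusted p-values up to 0.114. They included all 3 rescalings and leaving out fed rat 3 or 4 or P2 rat 1, 2 or 3.

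Lars2, for leucine, had the tightest groups. It was at 7.59, 7.54, 7.66 and 7.58 in fed rats, at 7.23, 7.29, 7.31 and 7.29 in P2 and at 7.02, 6.99, 6.94 and 7.02 in P3. The groups did not overlap. The change was -0.31 in P2 (SE 0.0655, limma adjusted p = 0.00272), -0.29 from P2 to P3 (limma adjusted p = 0.00462) and -0.60 from fed to P3 (limma adjusted p = 3.79e-06).

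Nars2, for asparagine, was at 7.67, 7.60, 7.59 and 7.52 in fed rats, 7.66, 7.68, 7.50 and 7.62 in P2 and 7.48, 7.31, 6.72 and 7.30 in P3. P3 rats lay below the others, with P3 rat 3 far below. The change was -0.41 from P2 to P3 (SE 0.13, limma adjusted p = 0.0289) and -0.39 from fed to P3 (SE 0.13, limma adjusted p = 0.0232), and without P3 rat 3 these were -0.25 (limma adjusted p = 0.0307) and -0.23 (limma adjusted p = 0.0284). Each call ended in 5 of 20 alternatives, with adjusted p-values up to 0.0685 and 0.116. For the second they were the 3 rescalings, the fit of fed and P3 rats alone and leaving out fed rat 1. For the first they were centred arrays, the fit of P2 and P3 rats alone and leaving out P2 rat 1, 2 or 4. Rars2, for arginine, was at 7.71, 7.53, 7.75 and 7.70 in fed and 7.64, 7.47, 6.97 and 7.26 in P3 rats. These overlapped, with P3 rat 3 again lowest. The change was -0.34 (SE 0.123, limma adjusted p = 0.0356) and without P3 rat 3 it was -0.22 and not called (limma adjusted p = 0.0976), nor was it called in 8 others: the 3 rescalings, the fit of fed and P3 rats alone, and leaving out fed rat 1, 3 or 4 or P3 rat 4. The array of P3 rat 3 also had the narrowest spread of levels, with quartiles at 5.16 and 8.34, and its part in these values beyond its removal was not tested.

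Aars2, Hars2, Pars2, Sars2, Vars2 and Yars2 were called in no comparison. Their changes ran from -0.22 (Aars2, P3 against fed, 95% interval -0.40 to -0.03) to 0.15 (Vars2, P2 against fed, 95% interval -0.06 to 0.36). Aars2 was close to the threshold (limma adjusted p = 0.0514) and was called lower without P3 rat 3 (0.0219), P2 rat 1 (0.0485) or P2 rat 2 (0.049). Under the rescalings its change shrank to between -0.16 and -0.06, and its limma adjusted p reached 0.569 among the alternatives. In P2, Vars2, Nars2 (0.02) and Yars2 (0.02) were the mitochondrial synthetases with values above 0, and none passed the test.

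For 11 amino acids both enzymes were measured, making 12 pairs, since Farsa and Farsb share Fars2. The difference cytosolic minus mitochondrial was taken within each rat's array, relative to its fed mean. From P2 to P3 this difference rose without overlap in 6 of the 12 pairs and fell in 0, where 26.3% of single genes had groups without overlap. It rose by 1.15 for Tars1 and Tars2, where P2 rats ranged from -0.25 to -0.10 and P3 rats from 0.57 to 1.21. It rose by 0.96 for Nars1 and Nars2, from -0.53 to -0.17 in P2 and from 0.12 to 1.20 in P3. For Rars1 and Rars2 the rise was 0.88, for Farsa and Farsb over Fars2 0.79 and 0.60, and for Lars1 and Lars2 0.37. P3 rat 3, lowest for Nars2 and Rars2, gave the highest P3 values of the asparagine and arginine pairs (1.20 and 1.07). The pair differences were not recomputed without that rat. The pairs of alanine, histidine, proline, serine, tyrosine and valine overlapped.

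**Figure D4:**
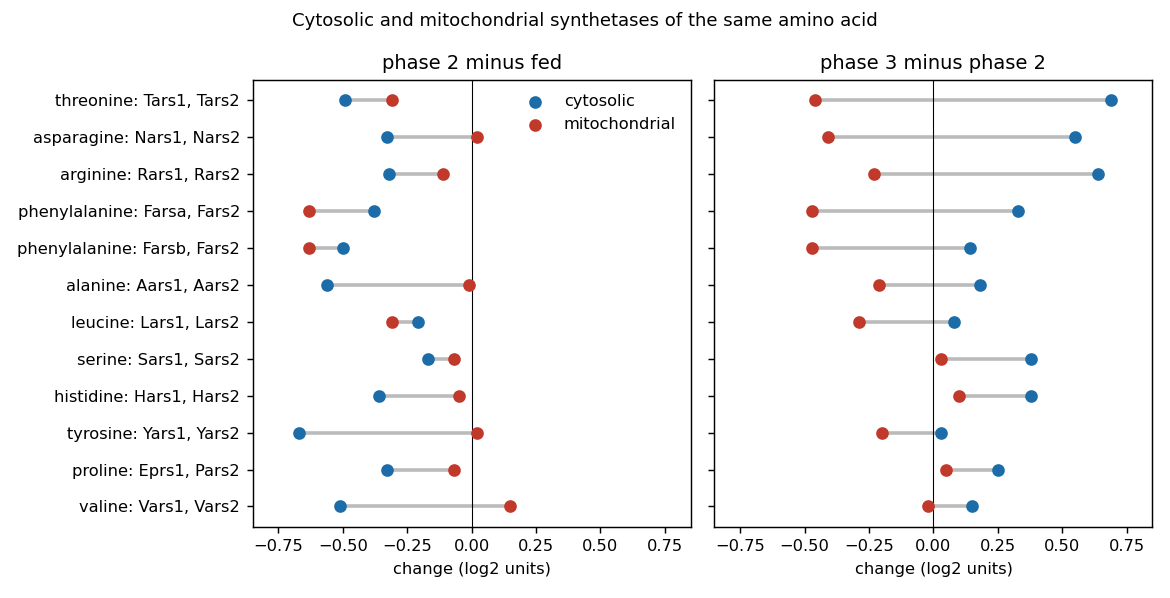
Change in log2 units (x axis) of the cytosolic (blue) and the mitochondrial (red) synthetase of each amino acid (rows), for P2 against fed (left) and P3 against P2 (right), as differences of the means of 4 rats. On the right the blue point lies to the right of the red one in all 12 pairs, widest for threonine at 0.69 and -0.46. On the left the blue point lies to the left of the red one except for leucine and both phenylalanine pairs.

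In P2 the same difference fell without overlap in 4 pairs, those of tyrosine (-0.69), valine (-0.66), alanine (-0.55) and asparagine (-0.35), and rose in 0, a share near the 31.0% of single genes without overlap. In P3 against fed it stood higher in 6 pairs and lower in 1, valine (-0.48), where 41.9% of single genes had no overlap. The widest were Farsa over Fars2 (1.05, P3 rats 0.74 to 1.35) and Tars1 over Tars2 (0.97). Rescaling all levels of an array by 1 factor leaves this difference as it is.

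Genes of the ATF4 response moved in both directions. Atf4 itself was at 10.10, 10.18, 9.89 and 9.83 in fed rats, at 9.99, 9.89, 10.04 and 9.97 in P2 and at 10.87, 11.15, 11.17 and 11.18 in P3. P3 rats stood clear above the others. It rose by 1.09 over fed (SE 0.0979, limma adjusted p = 5.68e-07) and by 1.12 over P2 (limma adjusted p = 1.97e-06), and P2 differed from fed by -0.03 (limma adjusted p = 0.891). Of 36 genes of the ATF4 and amino acid response, 7 rose and 8 fell in P2 (9.66% and 15.5% of all genes did), 15 rose and 7 fell from P2 to P3 (12.8% and 15.1%), and 17 rose and 10 fell from fed to P3 (21.1% and 24.3%). Their median changes were -0.08, 0.15 and 0.18.

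Within that list some transporters and other genes rose in P3 while enzymes of serine and asparagine synthesis fell. The 17 that rose from fed to P3 included Ddit4 (2.81), Ppp1r15a (2.05), Trib3 (1.83), Atf3 (1.16), Ddit3 (0.93) and Mthfd2 (0.81), and 10 fell. Gpt2 rose by 2.18 in P2 (SE 0.134, limma adjusted p = 1.18e-07). Slc7a5, the large neutral amino acid transporter, was at 6.37 to 6.75 in fed rats, 5.83 to 6.31 in P2 and 6.92 to 8.04 in P3 and rose by 1.51 from P2 to P3 (SE 0.205, limma adjusted p = 8.74e-05). Its partner Slc3a2 rose by 1.35 over fed. Asns, the asparagine synthetase and a standard ATF4 target, was at 9.48, 9.58, 9.70 and 9.61 in fed rats, 9.87, 9.70, 9.70 and 9.79 in P2 and 7.64, 8.02, 8.27 and 8.21 in P3. It fell by 1.73 from P2 to P3 (SE 0.118, limma adjusted p = 2.72e-07). Psat1, of serine synthesis, fell by 2.38 (SE 0.235, limma adjusted p = 5.81e-06). Eif2ak4, encoding GCN2, differed from fed by -0.06 in P2 and 0.09 in P3 and was not called.

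**Figure D5:**
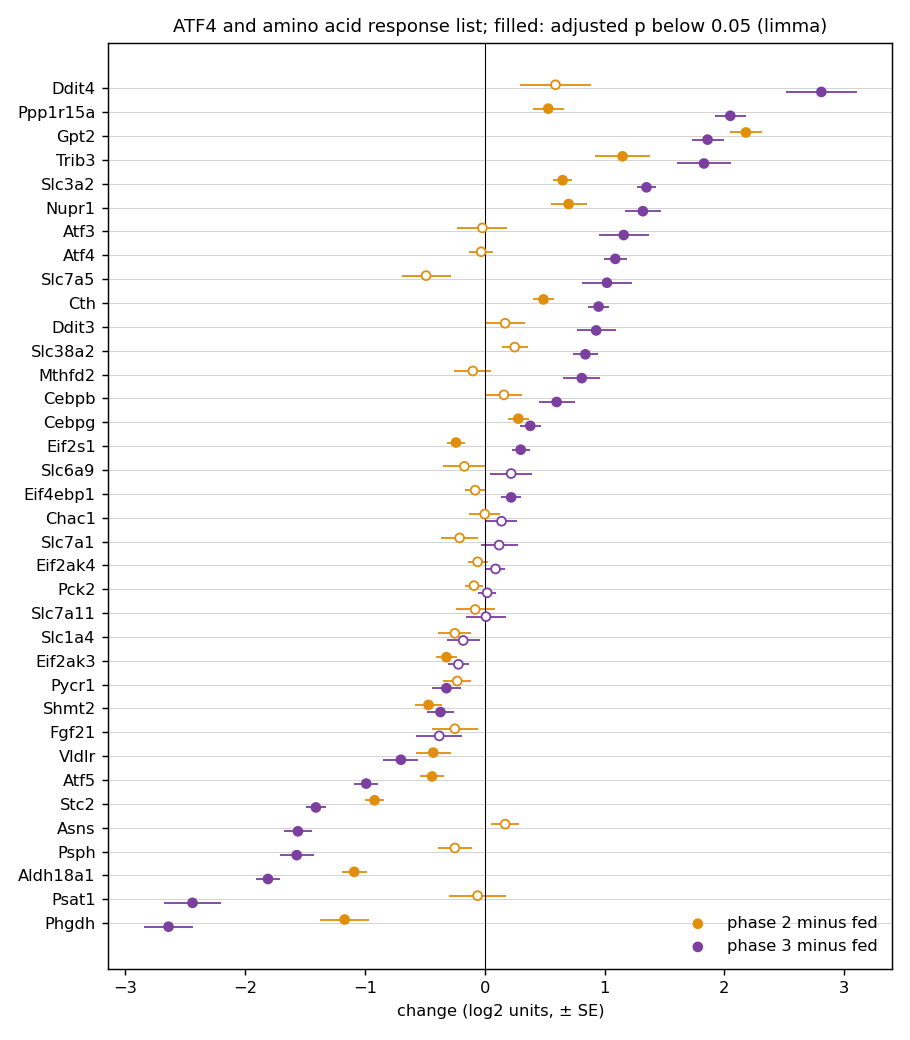
Change against fed in log2 units with its SE (x axis) of 36 genes of the ATF4 and amino acid response (rows) in P2 (orange) and P3 (purple), filled where the limma adjusted p was below 0.05. In P3 the list spreads from -2.64 to 2.81, with Atf4 at 1.09 and Asns at -1.56.

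Of the 13 cytosolic synthetases named as ATF4 targets, 8 fell in P2 and 7 rose from P2 to P3. From fed to P3, 1 of these 13 rose and 4 fell. Of the 6 others, 4 fell in P2, 3 rose from P2 to P3, and 2 rose and 1 fell from fed to P3. Among all genes 15.5% fell in P2, 12.8% rose from P2 to P3, and 21.1% rose and 24.3% fell from fed to P3. Of the 7 cytosolic synthetases with TGATGNAA in the window, 4 fell in P2 (median -0.33) and 5 rose from P2 to P3 (median 0.36). From fed to P3, 0 of these 7 rose and 2 fell (median 0.2). Of the 10 without TGATGNAA, 6 fell in P2 (median -0.34) and 4 rose from P2 to P3 (median 0.18). From fed to P3, 2 of these 10 rose and 3 fell (median -0.06). Gars1 and Rars1, without a window, were in neither group. Aars1 and Yars1 held the element and were not called between P2 and P3 (0.18 and 0.03). All these counts are descriptions, and whether the groups of synthetases differ was not tested.

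Genes that make, modify or export tRNA, or act beside the synthetases, were mixed. Of 21 on that list, 2 rose and 5 fell in P2 (9.66% and 15.5% of all genes did). From P2 to P3, 6 rose and 4 fell (12.8% and 15.1%), and from fed to P3, 7 rose and 6 fell (21.1% and 24.3%). Gatc and Qrsl1, subunits of the mitochondrial amidotransferase that completes glutaminyl-tRNA there, fell in every comparison. Gatc was at 8.34, 8.33, 8.05 and 8.52 in fed rats, 7.53, 7.60, 7.73 and 7.85 in P2 and 7.32, 7.35, 7.24 and 7.29 in P3, in 3 steps without overlap (P3 against fed -1.01, SE 0.1, limma adjusted p = 1.61e-06). Qrsl1 fell by 0.78 from fed to P3 (limma adjusted p = 6.94e-06). Trnt1, which adds the CCA end to every tRNA, went the other way, from 8.05 to 8.45 in P2 to 8.64 to 9.29 in P3 (0.75, SE 0.146, limma adjusted p = 0.00151). Trit1 and Trmu, which modify tRNA bases, rose by 1.20 and 0.77 from fed to P3.

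Other nuclear genes of mitochondrial function moved as well. Of 20 respiratory chain genes, 11 fell and 0 rose in P2 and 15 fell and 0 rose from fed to P3 (15.5% and 24.3% of all genes fell), with medians of -0.47 and -0.86. From P2 to P3, 2 of them rose and 10 fell (12.8% and 15.1% of all genes did), with a median of -0.31. Of 16 mitochondrial translation and transcription factors, 1 rose and 5 fell in P2 (9.66% and 15.5% of all genes did). From P2 to P3, 6 rose and 3 fell (12.8% and 15.1%), with a median of 0.02. From fed to P3, 6 rose and 5 fell (21.1% and 24.3%). Guf1, an elongation factor, fell by 1.04 from fed to P3, Taco1, an activator of cytochrome oxidase translation, by 0.86 and the elongation factor Tufm by 0.52. Tfam, which packages and transcribes mitochondrial DNA, rose by 0.57.

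Markers of the pad's cell types differed between the groups as well. Among all genes 9.66% rose and 15.5% fell in P2, and 12.8% rose and 15.1% fell from P2 to P3. Of 12 adipocyte markers, 3 rose and 1 fell in P2 and 0 rose and 11 fell from P2 to P3. Their median change in P2 was 0.06, with 7 of 12 above 0, and Lep (leptin) alone fell by 4.12. Their mean level per rat was 11.93 to 12.02 in fed, 11.70 to 11.84 in P2 and 10.15 to 10.91 in P3 rats. The 14 fibroblast and progenitor markers went from 10.98 to 11.14 in fed, to 10.36 to 10.72 in P2 and 9.19 to 9.74 in P3, with 11 lower and 1 higher from P2 to P3. Of 9 smooth muscle markers all 9 rose in P2 (8.11 to 8.78 in fed, 9.20 to 10.04 in P2, 9.14 to 9.79 in P3). Of 13 endothelial markers 10 rose in P2 (8.93 to 9.07 in fed, 9.36 to 9.58 in P2, 9.33 to 9.49 in P3). Macrophage markers (16) lay at 9.22 to 9.48, 9.21 to 9.50 and 9.22 to 9.84, with 4 higher and 2 lower from P2 to P3. The 7 mesothelial markers went from 7.98 to 8.23 in fed to 7.44 to 7.81 in P2 and 6.94 to 7.39 in P3. Of 16 T and NK cell markers (mean level 5.62 to 6.07), 1 rose and 0 fell in P2, and 0 rose and 5 fell from P2 to P3, among them Cd3g (-1.02), Lck (-0.54), Cd4 (-0.54) and Cd8a (-0.45). Cd4, at 8.96 to 9.80, stood well above that list's mean in every rat. Mean levels were 4.56 to 5.08 for 4 B cell, 5.18 to 5.64 for 9 skeletal muscle and 4.21 to 4.64 for 11 epididymis and testis markers, with 1, 1 and 1 of them called from P2 to P3. The part of these shifts in the synthetase results was not tested.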

How the data were processed

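Per the submitters' processing notes, RMA, GCOS and Affymetrix Expression Console 1.1 were used to make the deposited log2 levels, 1 per probe set and array. RMA settings are not given in the sources used here. Gene symbols came from the platform annotation (1 gene for 15310 of 29215 probe sets; 0 synthetase symbols on probe sets of several genes), and all 33 members matched RefSeq (GRCr8) by Entrez number. The brightest probe set by the mean of 12 arrays stood for a gene. Groups were taken from the sample titles.

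All 12 arrays entered 1 model with a mean per group, fitted with lmFit and eBayes (limma 3.58.1, R 4.3.3), and p-values were adjusted (Benjamini-Hochberg) over 14506 genes. On simulated data for P3 against fed over 14506 genes, 63 of 100 genes changed by 0.5 and 99 of 100 changed by 1.0 log2 were recovered, with 13 false calls. The members and lists were chosen with earlier results of these data known. Members with the 8 largest called changes per comparison, or against their class, are given in full, and up to 4 genes per list by smallest adjusted p, with Atf4, Asns, Eif2ak4 and Slc7a5. Alternatives were 3 rescalings (array medians, quantile, cyclic loess), leaving out the dimmest 40% of genes, averaging probe sets, a trended robust prior, only the compared groups, the replicate number as a block, and leaving out each rat. The number of arrays limits precision. No technical replicates were run, and each array is 1 rat. No batch was tested, since detection calls and scan batches were not used here.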

Additional observations from a re-analysis of the deposited data

Results flagged for a closer look

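Among 99 checks of a group of 4 rats, 4 had 1 rat far from the other 3, where chance flags about 1 group in 20. Aimp1 was 8.98 in fed rat 4 and 9.09 to 9.12 in the other fed rats. Eef1e1 was 8.58 in P2 rat 1 and 8.95 to 9.01 in the other P2 rats. Tars1 was 8.59 in P3 rat 1 and 8.86 to 8.88 in the other P3 rats. Vars2 was 6.32 in fed rat 1 and 6.61 to 6.65 in the other fed rats.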

How the results depend on the processing

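Of 48 calls among the 33 genes, 32 held in every one of the 20 alternatives run and 16 ended in some. Another 17 results were called in some alternative only. Of the called results 1 changed sign, Hars1 in P2 against fed, at 0.10 with the mean of its probe sets, and 20 uncalled ones did. With centred arrays, P3 against fed gave 7 cytosolic synthetases higher and 2 lower (median 0.18) and 1 mitochondrial higher and 3 lower (median -0.06). Quantile normalisation gave 5 cytosolic higher, and 1 mitochondrial higher and 3 lower (median -0.06). Cyclic loess gave 3 mitochondrial lower (median -0.16), and so did fitting only the 2 groups (3). Without the dimmest 40% of genes, where Pars2 had no value, the mitochondrial median was -0.28. The mitochondrial median in P2 was -0.01 with centred arrays and -0.01 with quantile normalisation. From P2 to P3 it was -0.12 and -0.14, and the cytosolic median was 0.35 with centred arrays. Leaving out 1 rat gave, for P3 against fed, 2 to 5 cytosolic higher, 3 to 6 mitochondrial lower and a mitochondrial median of -0.28 to -0.20. For P3 against P2 that median was -0.30 to -0.11. The causes were not tested. Deviations from the group mean correlated at -0.155 to 0.188 over 12 pairs of same-numbered rats of different groups. Between rats with different numbers they correlated at -0.253 to 0.276. This cannot show whether the numbers pair the rats, and the main fit did not pair them. With the replicate block, 13 cytosolic synthetases fell in P2, 9 rose from P2 to P3 and 2 rose from fed to P3. In the simulated data, with 4 rats a group, changes of 0.5 were missed in part. Far fewer genes changed there than were called in P3 against fed, so that share does not measure what was missed here.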

Other observations

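Cytosolic elongation and release factors, which use the charged tRNAs, were measured alongside. Of 14, 2 rose and 2 fell in P2 (9.66% and 15.5% of all genes did). From P2 to P3, 4 rose and 1 fell (12.8% and 15.1%), and from fed to P3, 4 rose and 2 fell (21.1% and 24.3%). The release factor Etf1 rose by 0.51 from P2 to P3 (SE 0.0744, limma adjusted p = 0.000151), and the exchange factor subunit Eef1d rose by 0.42 from fed to P3. Eef2, the translocase, rose by 0.24 in P2 and fell by 0.26 from P2 to P3. Gspt1, the partner of Etf1, fell by 0.35 in P2.

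Most cell cycle genes were lower in both fasted groups than in fed rats. Of 23, 22 fell and 0 rose in P2 (15.5% and 9.66% of all genes did), and 22 fell and 1 rose from fed to P3 (24.3% and 21.1%), with medians of -1.26 and -1.55. Their mean level per rat was 6.57 to 7.51 in fed, 5.69 to 6.0 in P2 and 5.37 to 5.57 in P3 rats. From P2 to P3, 4 fell and 1, Pcna, rose (0.95), and 18 were not called (15.1% of all genes fell and 12.8% rose).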
